A study of Mus musculus with 5 samples.

Results

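The enzymes that write, copy and remove DNA methylation were followed through the differentiation of mouse embryonic stem (ES) cells into spinal motor neurons. The list held 8 genes, which were Dnmt1, Dnmt3a, Dnmt3b, Dnmt3l, Uhrf1, Tet1, Tet2 and Tet3. A probe was taken as belonging to a gene when its transcript accession was paired with that gene in the RefSeq table, and 7 of the 8 genes were matched in this way, with 13 of the 55681 mouse probes on the array. Tet1 had no matched probe and was not analysed here. The 7 genes were set against all 19897 genes with a matched probe.

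RNA was hybridised to 5 one-colour arrays, 1 for each time point, from wild-type male cells. The ES array held undifferentiated cells, to which no retinoic acid (RA) had been applied. Day2, Day3 and Day4 were embryoid bodies, the floating aggregates in which ES cells differentiate, after 8 hours, 1 day and 2 days of RA. Day7 was the motor neuron culture after 5 days of RA. The labels place RA and Sonic hedgehog, signals that give cells a spinal and a ventral identity, between day 2 and day 5 of the protocol. They also give the 5 days of RA at Day7, which reach past that window. With a single array at each time there was no spread between cultures to set a difference against, and a change between time points was therefore called by size alone, when it passed 2-fold (1 on the log2 scale), without a test. The error given beside a value is the scanner software's own error of 1 spot, which was 0.14 to 0.26 on the log2 scale for the 13 probes on the 5 arrays and 0.20 to 0.36 for a difference between 2 arrays. It covers neither the culture nor the labelling.

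All 13 probes were well above background on all 5 arrays. The whole series had a pair of features that touch the values. The Day2 array had 86.7% of its probes well above background, against 57.5% to 65.7% on the other arrays, and Day7 was hybridised on a slide of its own while the other 4 arrays shared a slide, so that time and slide cannot be told apart for Day7. The markers of the first and last stage followed their labels. From ES to Day7, 24.8% of all genes were raised past 2-fold and 24.4% lowered. Of 7 motor neuron genes, 7 were raised, with Isl1, a LIM homeodomain factor of motor neurons, higher by 6.07 on the log2 scale and the acetylcholine transporter gene Slc18a3 by 6.98. Of 10 pluripotency genes, 8 were lowered, and Pou5f1 fell by 4.17, reading 12.39, 11.68, 10.01, 8.90 and 8.22 on the arrays in order of their labelled times. Of 8 pan-neuronal genes 7 were raised, of 7 neural and motor neuron progenitor genes 5 were raised and 2 lowered, of 7 mesoderm and endoderm genes with a value 2 were raised and 3 lowered, and of 7 housekeeping genes 1 was raised and 2 lowered. Among the housekeeping genes, Hprt fell by 2.81 and Tbp by 1.47, and Ywhaz rose by 1.80. At Day4, 4 of 7 mesoderm and endoderm genes with a value were raised against ES, where 17% of all genes were, among them the endoderm factor Gata6 by 4.27 and Sox17 by 2.41, and their part in the changes up to Day4 was not tested. Of 5 glial genes with a value 3 were raised, among them Fabp7 of radial glia, higher by 10.39, and 1 was lowered, while the astrocyte genes Gfap and S100b did not stand well above background at Day7. The cultures were measured in bulk, so fewer cells of a type and less RNA per cell cannot be told apart.

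Methyl groups on cytosine are placed mainly where a cytosine is followed by a guanine (CpG). Dnmt3a and Dnmt3b are the de novo methyltransferases, which methylate sites that carried no mark, and Dnmt3l is a catalytically inactive relative that binds them and stimulates their activity in ES and germ cells. Dnmt1 copies the mark onto the new strand behind the replication fork, brought there by Uhrf1, which recognises hemimethylated CpG. Tet1, Tet2 and Tet3 are dioxygenases that oxidise 5-methylcytosine, a step towards its removal. ES cells and early embryos are known for strong expression of Dnmt3b and Dnmt3l, and neurons for Dnmt3a.

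The promoters of these genes differ widely in CpG content. RefSeq (GRCm38.p6) gave 15 start-site windows for the 8 genes, each of 300 bases from 250 before to 50 after an annotated start, and these were set against the 32851 such windows of 27025 genes. The median window held 7 CpG, with quartiles of 3 and 20. The window of Dnmt3b held 30 and that of Tet2 held 57, whereas the 3 windows of Dnmt3l held 6, 4 and 3. The 250 bases upstream of the start of Dnmt3b (chr2:153649199-153649448, plus strand) and of the first start of Dnmt3l (chr10:78042037-78042286, plus strand) are shown because these genes had the largest falls of the 7 measured. Each CpG is in capitals, 21 upstream of Dnmt3b and 5 upstream of Dnmt3l.
Dnmt3b: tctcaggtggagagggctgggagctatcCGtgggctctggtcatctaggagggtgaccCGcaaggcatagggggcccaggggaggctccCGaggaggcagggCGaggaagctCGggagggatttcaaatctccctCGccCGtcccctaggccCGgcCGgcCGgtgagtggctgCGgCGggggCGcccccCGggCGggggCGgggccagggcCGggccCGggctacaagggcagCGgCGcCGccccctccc
Dnmt3l: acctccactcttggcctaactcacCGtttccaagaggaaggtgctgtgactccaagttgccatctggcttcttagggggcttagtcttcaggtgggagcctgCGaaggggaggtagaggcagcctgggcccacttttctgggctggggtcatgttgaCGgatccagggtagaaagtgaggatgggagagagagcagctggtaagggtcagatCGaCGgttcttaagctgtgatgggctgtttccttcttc

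The 15 windows were also searched on both strands for the E2F-like letters TTTNNCGC, a pattern known from replication genes. It was present in 5.17% of all windows. Among the 8 genes it was found only in the windows of Dnmt1 and Uhrf1, the pair that works at the replication fork, in 1 of 3 windows of Dnmt1 and in both windows of Uhrf1. The letters themselves hold a CpG. The windows with a match held 33 CpG for Dnmt1 and 12 and 33 for Uhrf1, where the median window held 7. The window of Tet2, with 57 CpG, had no match. The Dnmt1 window held 3 matches, of which a pair overlapped each other. The matches are shown, without the overlapping one, with the matched letters in capitals, each from the strand of its gene. The upstream match of Dnmt1 lay at chr9:20952824-20952853 and reads as the pattern on the opposite strand, and the other lay just past the start at chr9:20952574-20952601, both from the minus strand. The Uhrf1 matches lay at chr17:56303270-56303299 and chr17:56304117-56304146, upstream of its 2 annotated starts on the plus strand. A match is a description of the letters and not evidence of a site in use.
Dnmt1, upstream: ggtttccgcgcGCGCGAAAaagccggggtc
Dnmt1, past the start: gcggggcagcgTTTGGCGCgggctgtgc
Uhrf1, upstream of the first start: gccccacttgcTTTCTCGCttcccgccaca
Uhrf1, upstream of the other start: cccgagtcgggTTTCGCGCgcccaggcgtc

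The hexamer AGGTCA repeated in the same direction with 5 bases between, one form of the retinoic acid response element, was found in 0.009% of all windows and in none of the 15. No match says only that these letters are not in these windows.

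Dnmt3b showed the largest change of the 7 enzymes. Its quantile-normalized log2 signal at the brightest of 3 probes was 16.98 in ES cells, 16.22 at Day2, 14.31 at Day3, 13.27 at Day4 and 11.99 at Day7, lower at each later time. The other probes went the same way at every step, from 15.10 through 14.45, 13.27 and 12.20 to 10.50 and from 14.94 through 14.27, 12.72 and 11.58 to 10.23. From ES to Day7 the log2 signal of Dnmt3b fell by 4.99 ± 0.20, which is 31.8-fold, and the changes at the other probes were −4.61 and −4.71. Among the 15838 genes with a value in this comparison, 31 fell as far or further, Dnmt3b included. Much of the fall was in place before Day7 and so between arrays of 1 slide, since from ES to Day4 the signal fell by 3.71, or 13.1-fold. By steps, the changes were −1.91 from Day2 to Day3, −1.04 from Day3 to Day4 and −1.28 from Day4 to Day7, the last of which was −0.01 without normalization between arrays, where the median of all genes moved by 1.06. From ES to Day2 the change was −0.76, under the threshold.

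Dnmt3l, the cofactor, passed 2-fold by Day2 and levelled after Day4. Its log2 signal was 14.96 in ES cells, 13.63 at Day2, 13.04 at Day3, 11.93 at Day4 and 12.01 at Day7. The signal fell by 1.32 within the step to Day2, when RA had been present for 8 hours. This step also goes from undifferentiated ES cells to embryoid bodies, so RA and that change cannot be told apart. The signal fell by 1.11 from Day3 to Day4. Day4 and Day7 differed by 0.08, less than the scanner error, or by 1.32 without normalization, where the median of all genes moved by 1.06. From ES to Day4 it fell by 3.03 ± 0.20 (8.15-fold), and to Day7 it fell by 2.95 (7.71-fold). Of all genes with a value, 489 fell from ES to Day7 as far or further.

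Dnmt3a, the other de novo enzyme, went the opposite way. Its single probe read 10.21 in ES cells, 10.87 at Day2, 10.04 at Day3, 10.87 at Day4 and 12.14 at Day7. The first 4 arrays, which shared a slide, lay within 0.84 of one another after quantile normalization, with no steady direction, and Day7 lay above all of them. The signal rose by 1.27 ± 0.20 from Day4 to Day7 (2.41-fold) and by 1.92 from ES to Day7 (3.80-fold), a rise that 2143 of the 15838 genes reached or passed. Without normalization these were 2.46 and 2.10, where the medians of all genes were 1.06 and 0.01, and the change from Day2 to Day3 was −1.47, where that median was −0.81. Dnmt3a has transcripts from more than 1 start, and which of them the probe reads is not given in the sources used here.

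**Figure D1:**
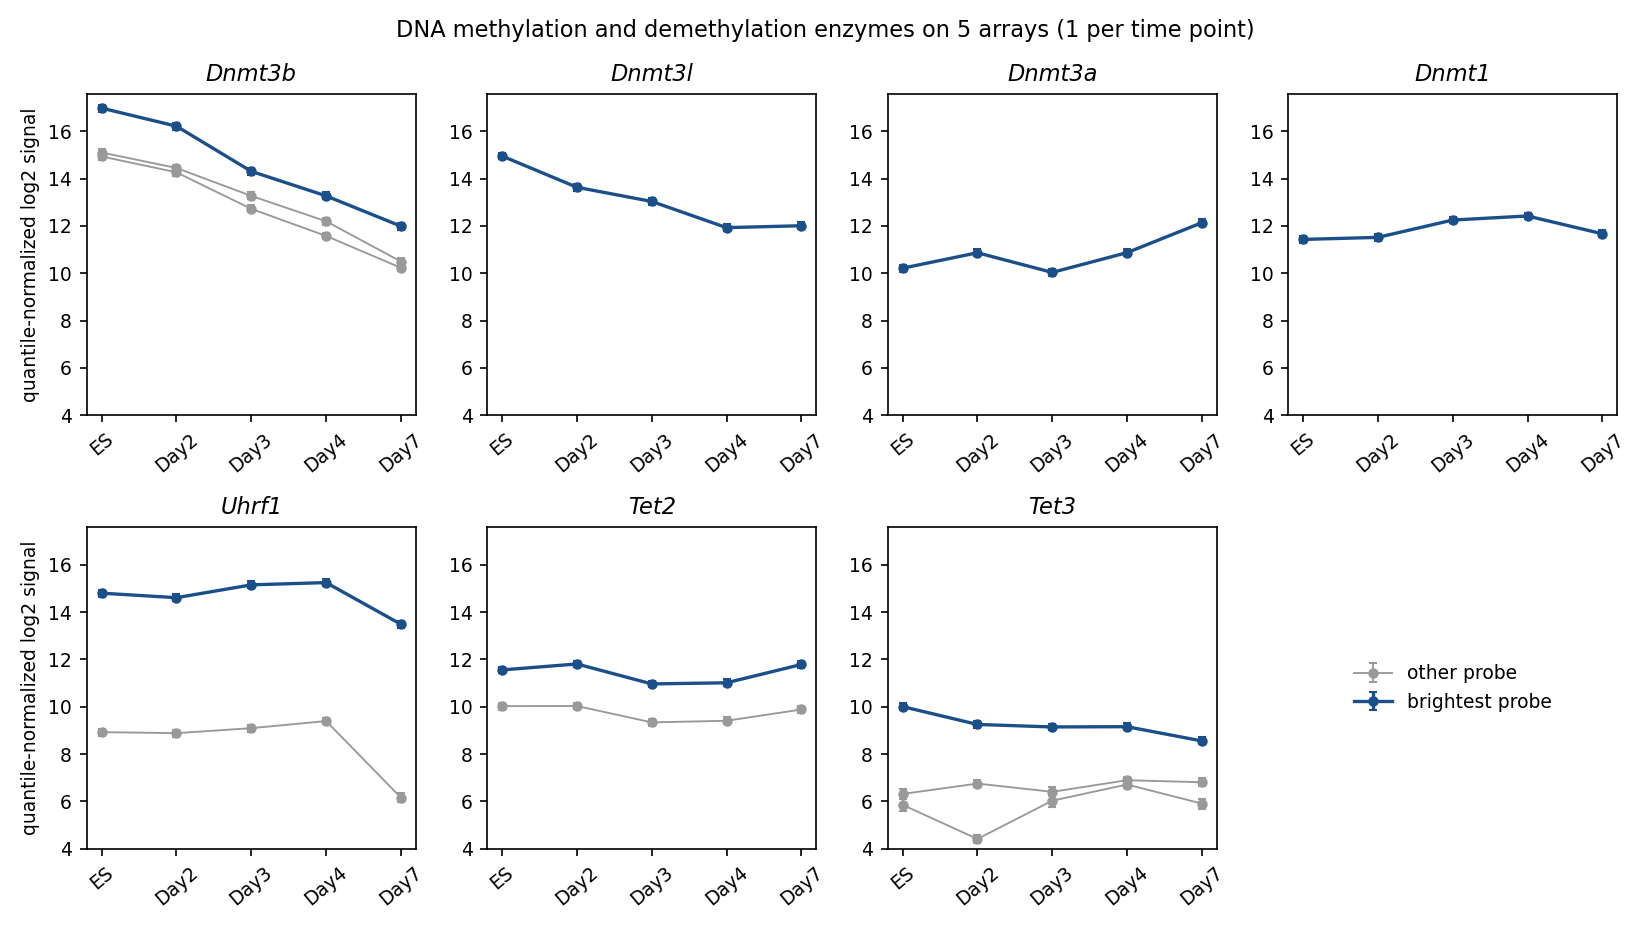
Quantile-normalized log2 signal (vertical axis) of each probe of the 7 enzymes on the ES, Day2, Day3, Day4 and Day7 arrays (horizontal axis, 1 array each), with the brightest probe of a gene in blue, its other probes in grey and bars for the scanner error of the spot. The 3 probes of Dnmt3b fall at every step, the brightest from 16.98 to 11.99, Dnmt3a is highest at Day7 (12.14), both probes of Uhrf1 are lowest at Day7, and the 3 probes of Tet3 do not run alike.

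After quantile normalization the maintenance pair stayed within 2-fold of ES up to Day4, and Uhrf1 then fell. Uhrf1 read 14.80 in ES cells, 14.61 at Day2, 15.15 at Day3, 15.25 at Day4 and 13.49 at Day7 at its brightest probe, and its other probe read 8.93, 8.88, 9.09, 9.39 and 6.16. On both probes Day4 was the highest array and Day7 the lowest. From Day4 to Day7 the log2 signal of Uhrf1 fell by 1.76 ± 0.20 (3.39-fold) at one probe and fell by 3.23 ± 0.23 (9.41-fold) at the other, a gap between probes well over the scanner error. Without normalization between arrays the brightest probe changed by −0.61, short of 2-fold, and the other by −2.15, where the median of all genes moved by 1.06. From ES to Day4 it changed by 0.45 after quantile normalization, by −0.06 after the 75th percentile shift and by −1.02 without normalization, where the median of all genes moved by −1.07. From ES to Day7 the probes fell by 1.31 (2.48-fold) and, at the other, fell by 2.77 (6.80-fold), and 2750 genes fell as far as the brightest probe or further.

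Dnmt1 was measured by 1 probe, at 11.43 in ES cells, 11.52 at Day2, 12.25 at Day3, 12.42 at Day4 and 11.67 at Day7. After quantile normalization its highest array was also Day4, and no step passed 2-fold. The change from ES to Day4 was 0.99 ± 0.20 (1.99-fold), just under the threshold, and 1.04 with normexp background correction. From Day4 to Day7 it was −0.75, and without normalization the sign turned, to 0.54, where the median of all genes moved by 1.06. From ES to Day7 the difference was 0.24 after quantile normalization and −0.01 when each array was shifted to its 75th percentile, so it had no settled sign.

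Genes of DNA replication and the cell cycle were read beside this pair. Of 16 such genes, 12 were lowered past 2-fold from Day4 to Day7 and none was raised, against 18.1% lowered and 18.1% raised among all genes, with a median change of −1.40. From ES to Day4 their median change was −0.03, with 1 raised (Mki67, 1.05) and 1 lowered (Ccne1, −1.26), against 17% and 14.4% of all genes, while the 75th percentile shift gave a median of −0.53 with 0 raised and 3 lowered, against 15.8% and 18.7%. Mcm3, a subunit of the replicative helicase, fell by 1.81 from Day4 to Day7, and Cdc6, which loads that helicase, fell by 2.06. The part of this fall in the values of Uhrf1 and Dnmt1 was not tested.

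**Figure D2:**
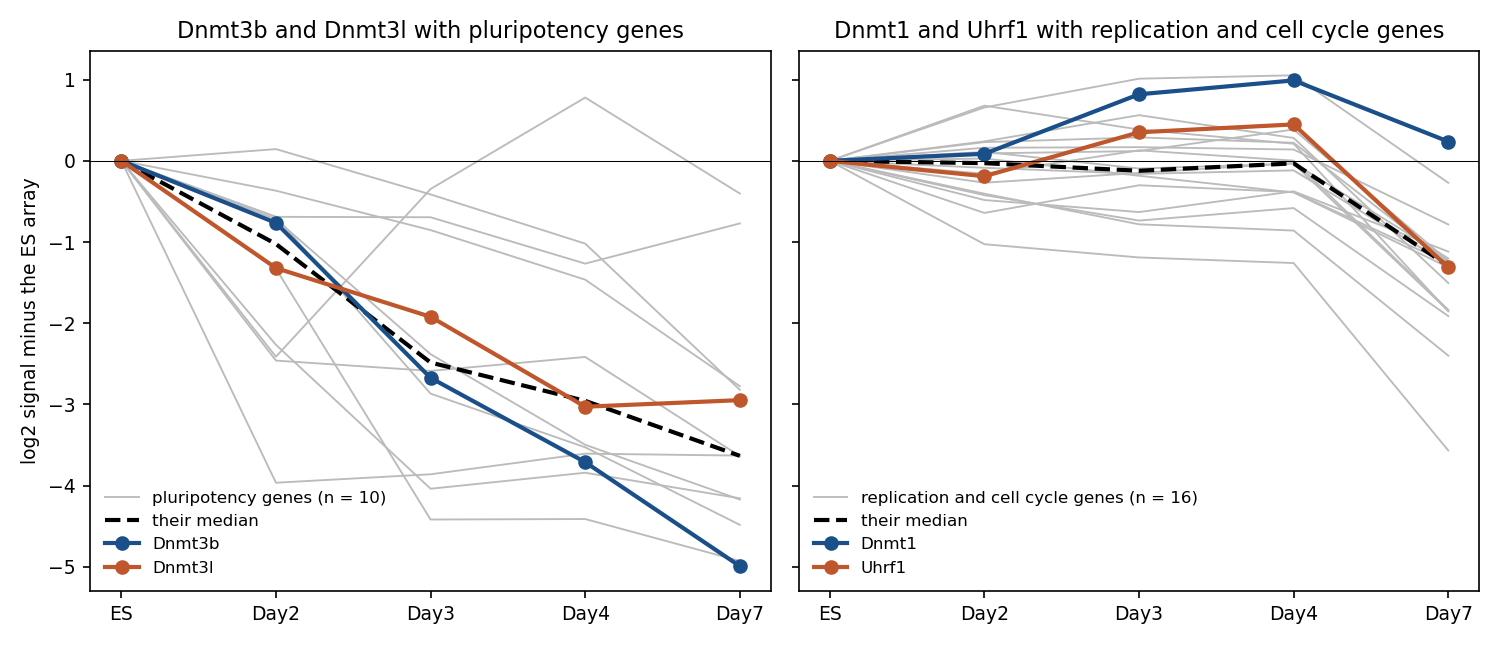
Log2 signal minus that of the ES array (vertical axis) over the 5 arrays, for Dnmt3b and Dnmt3l with 10 pluripotency genes (left) and for Dnmt1 and Uhrf1 with 16 replication and cell cycle genes (right), where grey lines are single genes and the dashed line is their median. Dnmt3b and Dnmt3l lie at −3.71 and −3.03 at Day4, where the pluripotency median is −2.96, and at Day7 Uhrf1 (−1.31) lies at the replication median (−1.30) while Dnmt1 lies at 0.24.

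The pluripotency genes are set beside Dnmt3b and Dnmt3l in that plot. From ES to Day3, 6 of 10 were lowered and from ES to Day4 9 of 10, against 10.2% and 14.4% of all genes, with medians of −2.48 and −2.96. The growth factor gene Fgf4 fell by 4.41 from ES to Day4 and the chromatin factor gene Utf1 fell by 3.53. Nanog, a core pluripotency factor, lay 0.78 above its ES value at Day4. Fgf5 and Otx2, genes of the primed state that follows naive pluripotency, read 11.04 and 12.55 in ES cells and changed by −4.94 and −7.16 to Day4, so the ES array carried signal of both states. Of the 4 primed genes 3 were lowered from ES to Day4 and 1, Sox3, was raised, by 1.80. Whether these changes in cell state account for those of Dnmt3b and Dnmt3l was not tested.

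Of the demethylation enzymes, Tet2 stayed within 2-fold at every step after quantile normalization. Its brightest probe read 11.56 in ES cells, 11.81 at Day2, 10.97 at Day3, 11.01 at Day4 and 11.79 at Day7, and its other probe read 10.03, 10.03, 9.34, 9.41 and 9.88. On both probes Day3 and Day4 were the lowest arrays. The change from Day2 to Day3 was −0.84 at the brightest probe and that from Day4 to Day7 was 0.77. Without normalization these were −1.47 and 2.01, where the medians of all genes were −0.81 and 1.06. From ES to Day7 the probes gave 0.23 and −0.14, each within or close to its scanner error of 0.20.

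The probes of Tet3 disagreed. The brightest read 10.01 in ES cells, 9.25 at Day2, 9.15 at Day3, 9.16 at Day4 and 8.55 at Day7, and its log2 signal fell by 1.45 ± 0.21 from ES to Day7 (2.74-fold). The other probes read 6.31, 6.75, 6.40, 6.89 and 6.81, and 5.85, 4.41, 6.03, 6.71 and 5.91, and their changes from ES to Day7 were 0.49 ± 0.26 and 0.05 ± 0.34. The ES array was thus the highest at the brightest probe and the lowest at one of the others. At the probe that read 4.41 at Day2, the change from ES to Day2 depended on the normalization. It was −1.44 after quantile normalization, 0.13 after the 75th percentile shift and 0.36 without normalization. Tet3 is counted among the lowered genes below through its brightest probe only, and the call does not hold at the others.

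**Figure D3:**
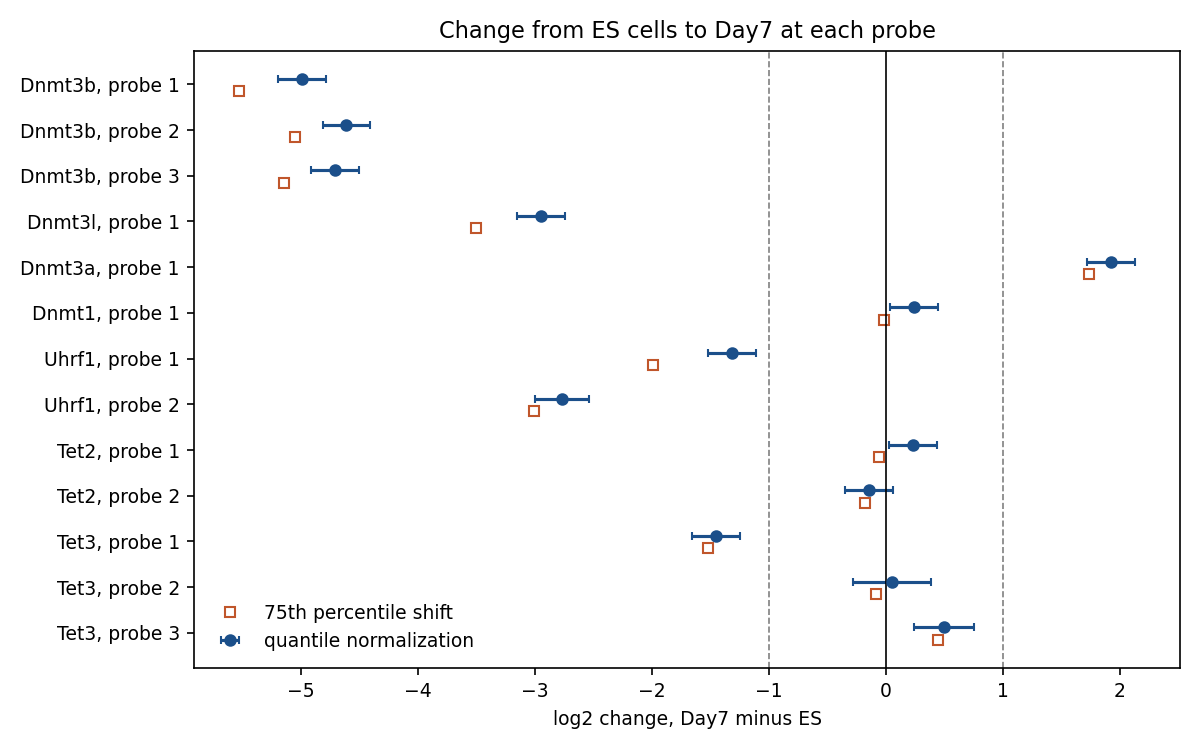
Log2 change from ES cells to Day7 (horizontal axis) at each of the 13 probes, numbered within a gene with the brightest as probe 1, after quantile normalization (filled circles, with the scanner error of a difference) and with the arrays aligned at their 75th percentiles (open squares), with dashed lines at 2-fold. All 3 probes of Dnmt3b lie at or below −4.61 on either scale, Dnmt3a lies at 1.92 and 1.74, both probes of Uhrf1 lie past 2-fold, and of the 3 Tet3 probes 1 does.

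Counted over the time course with 1 probe for a gene, most calls among the 7 enzymes were falls. From ES to Day2, 1 of 7 was lowered (Dnmt3l) and 0 were raised, against 11.3% lowered and 10.7% raised among all genes with a value. From Day2 to Day3, 1 was lowered (Dnmt3b) and 0 raised, against 7.76% and 13%. From Day3 to Day4, 2 were lowered (Dnmt3b and Dnmt3l) and 0 raised, against 4.87% and 3.62%. With so few genes, 1 call in the steps up to Day3 is close to the background.

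The step from Day4 to Day7 held the most calls of the 4 steps, among the enzymes as among all genes. In it 2 enzymes were lowered (Dnmt3b and Uhrf1) and 1 was raised (Dnmt3a), against 18.1% lowered and 18.1% raised in all. From ES to Day3, 2 were lowered (Dnmt3b and Dnmt3l) and 0 raised, against 10.2% and 15.6%, and from ES to Day4 the same pair was lowered and 0 raised, against 14.4% and 17%. From ES to Day7, 4 were lowered (Dnmt3b, Dnmt3l, Uhrf1 and Tet3) and 1 was raised (Dnmt3a), against 24.4% and 24.8%. The median change of the 7 was then −1.31, where that of all genes was −0.07. This median is the value of Uhrf1 and counts Tet3 at −1.45, through its brightest probe. The other Tet3 probes gave 0.49 and 0.05, so the median depends on that choice of probe.

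A shift of the arrays to their 75th percentiles changed 1 of these calls. Dnmt3b then also passed 2-fold from ES to Day2, at −1.08, and 2 enzymes were lowered in that step, against 7.01% lowered and 20.9% raised among all genes under the shift. The split of all called genes moved more. Quantile normalization gave 48.7% raised among the calls from ES to Day2 and the shift gave 74.9%. The figures were 62.6% and 25.5% from Day2 to Day3, and 60.3% and 48% from ES to Day3. Under the shift the median of all genes moved by −0.35 from ES to Day7, and relative to that median Dnmt3b differed by −5.17, Dnmt3l by −3.15, Uhrf1 by −1.64, Tet3 by −1.16 and Dnmt3a by 2.09.

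The proteins that act with these enzymes were described from ES to Day7 by lists of known members, against 24.4% of all genes lowered and 24.8% raised, or 32.3% and 22% under the 75th percentile shift. Among 11 readers of methylated CpG and relatives that share the binding domain, such as Mbd3, Mbd5 and Mbd6, which do not read the mark selectively, 4 were raised and 1 was lowered on either scale, with a median change of 0.28. Among those raised, the zinc finger readers Zbtb4 and Zbtb33 rose by 2.71 and 1.14, and the domain relative Mbd5 rose by 2.59. Mbd4, a glycosylase that removes thymine from T:G mismatches, fell by 1.01. Uhrf2, the close relative of Uhrf1, changed by 0.93, under the threshold and opposite in sign to Uhrf1.

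Among 16 partners and regulators of the enzymes, 8 were lowered and 2 raised, against 24.4% and 24.8% of all genes, with a median of −1.03. Under the 75th percentile shift 9 were lowered and 1 raised, against 32.3% and 22%. Dppa3, which protects the early embryo's methylation and opposes Uhrf1 in the oocyte, fell by 4.0, and Prdm14, a repressor of the Dnmt3 genes in naive cells, fell by 2.33. Hells and Cdca7, a chromatin remodeller and its partner needed for methylation, changed by −1.75 and −2.34. Usp7, a deubiquitinase bound by Dnmt1, fell by 1.69, and Pcna, the clamp of the replication fork, fell by 1.5. Cxxc4, related to the CXXC domain that Tet2 lacks, did not stand well above background on the ES array and was at least 29.4-fold higher at Day7, a bound taken against the lowest signal among probes well above background.

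Among 14 genes of base excision and demethylation repair, 7 were lowered and 2 raised, against 24.4% and 24.8% of all genes, with a median of −1.02. Under the shift these were 9 and 2, against 32.3% and 22%. Tdg, the glycosylase that excises the products of Tet oxidation, read 9.93, 10.46, 10.12, 10.16 and 8.74 and fell by 1.19, its whole fall lying after Day4. Gadd45a, Gadd45b and Gadd45g, stress response proteins linked to demethylation, changed by −2.00, −2.45 and −1.83, Neil2 fell by 3.31 and the uracil glycosylase gene Smug1 rose by 2.82. Among 11 genes of methyl donor supply, 6 were lowered and 1 raised, against the same shares of all genes, with a median of −1.11 (7 and 1 under the shift). Ahcy, which clears S-adenosylhomocysteine, fell by 3.02, Mthfd1 of the folate cycle fell by 2.86, and Idh1, a source of the 2-oxoglutarate that Tet enzymes use, rose by 2.27.

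Germline genes whose promoters are known to be silenced by methylation in somatic cells were read as a further list. Of 14, 12 had a value from ES to Day7, of which 4 were lowered and 1 was raised, against 24.4% and 24.8% of all genes. Their median change was −0.71. Under the shift 6 were lowered and 1 was raised, against 32.3% and 22% of all genes, with a median of −1.04. Tdrd1 and Asz1 did not stand well above background on the ES or the Day7 array. Sycp3, a protein of the meiotic chromosome axis, fell by 3.63, the germ cell helicase gene Ddx4 fell by 2.89, Mael fell by 2.33 and Sycp1 fell by 1.27, whereas Dazl rose by 2.30. From ES to Day4, 4 of the 12 were lowered and 2 raised, against 14.4% and 17% of all genes. The calls from ES to Day2 went the other way, with 0 of 14 lowered and 3 raised, against 11.3% and 10.7%. Under the shift 0 were lowered and 5 raised in that step, against 7.01% and 20.9%. DNA methylation itself was not measured.

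**Figure D4:**
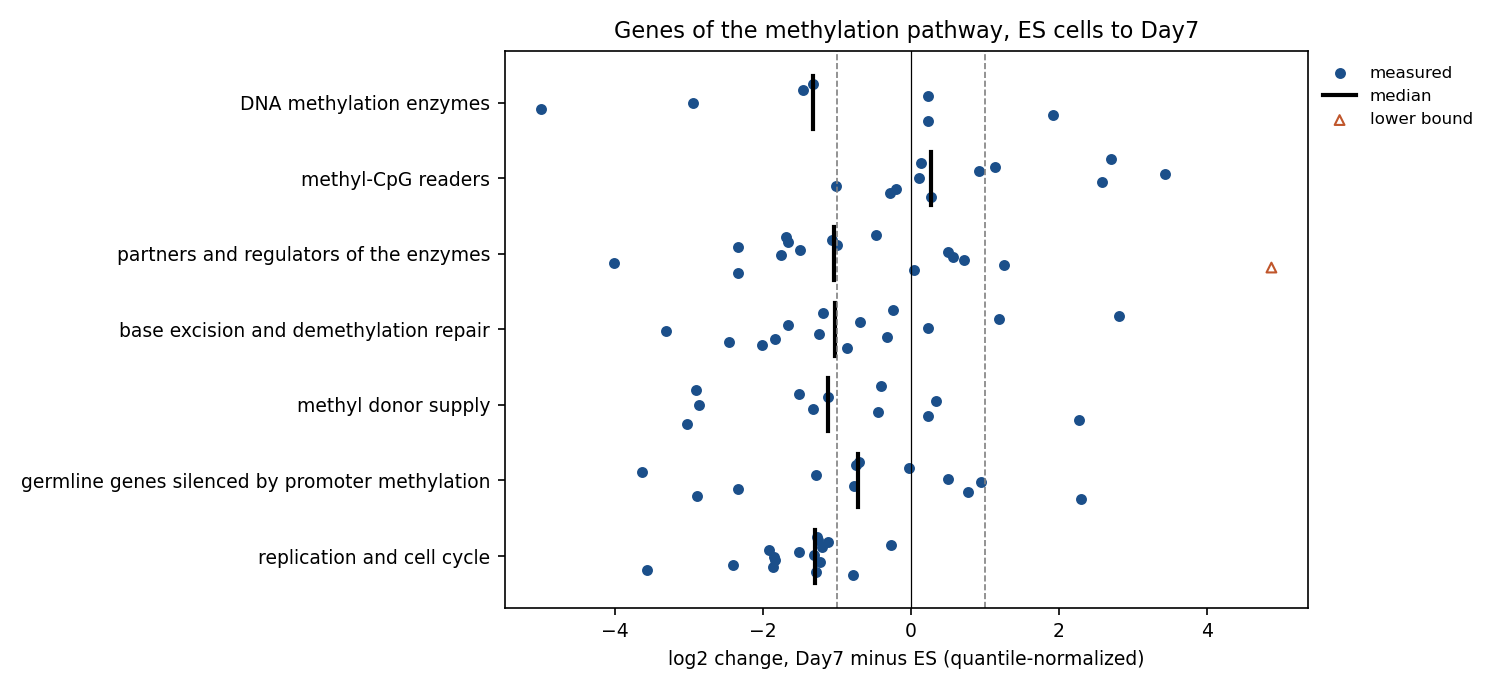
Log2 change from ES cells to Day7 (horizontal axis, quantile-normalized) of each gene with a value in 7 lists (rows), with a black bar at the list's median, dashed lines at 2-fold and a triangle for a gene known only as a lower bound. The enzymes span −4.99 to 1.92, the readers with their domain relatives have a median of 0.28 and the replication genes one of −1.30, and in the latter 14 of 16 lie past 2-fold on the left.

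The genes whose course over the 5 arrays was nearest to that of each enzyme were found among 13468 genes by the root mean square distance between log2 signals, each centred on its own mean. For Dnmt3b these were Cysltr1, Tex21 and Cth, at 0.17 to 0.20, and those of Dnmt3l included Hsf5 and Tmem45a, at 0.15 and 0.17. For Dnmt3a they were Senp6, Gm10845 and Rasa3, at 0.19 to 0.22. Closer courses were found for Dnmt1, with Ikbkg nearest (0.04), for Uhrf1, with Slc25a15 nearest (0.04), and for Tet3, with Prf1 nearest (0.05), and those near Tet2 included Sirt5 (0.05). This likeness is a description over 5 arrays that share their normalization, and the distances given for Dnmt1, Uhrf1, Tet2 and Tet3 were under the scanner error of a spot.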

How the data were processed

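RNA from 5 samples, 1 for each time point, was measured on Agilent mouse one-colour arrays. The authors deposited the scanner output of Agilent Feature Extraction 10.5.1, whose intensity values were already background-subtracted and detrended, with flags per spot, among them whether it was well above background. A log2 table was deposited too, which held the log2 processed signal minus the array's 75th percentile. That table held 0 columns of other samples. The array design names mm9, and RefSeq (GRCm38.p6) was used for gene names and promoter windows only.

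Log2 intensity was averaged over spots that were neither controls nor outliers and quantile-normalized with limma 3.58.1 (R 4.3.3), since a legend of the study names a quantile analysis. Further steps ran in Python 3.11.15 with numpy 2.4.6, pandas 2.3.3 and matplotlib 3.10.9. Of the mouse probes, 26300 matched 1 gene, and 5339 genes had more than 1 probe. A gene was represented by its brightest probe over the 5 arrays, with all probes of the enzymes shown. Where a probe was well above background on 1 side only, its dim side was set to the lowest value well above background on that array, or to its own value if higher, as a bound, and where it was dim on both sides it had no value. A change was called past 2-fold. The code for the calls was tested on simulated data. For the 4 arrays that shared a slide, the array positions in the scanner headers differed from those in the names of the scanner output, in the pattern of a slide turned round, and each array was taken as labelled.

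The members, the gene lists and the rule for named genes (all members, list genes past 2-fold from ES to Day7, and the 3 nearest courses for each member) were chosen with earlier results of these data known. A few genes that the rule names are not reported here. No p-value is given, because each time point had 1 array, and the number of arrays limits the precision. Alternatives were the 75th percentile shift, the deposited table, unnormalized signals, normexp (offset 50), other probe rules and detection flags, quantile normalization without Day2, and thresholds of 1.5-fold and 4-fold.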

Additional observations from a re-analysis of the deposited data

How the results depend on the processing

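Of the enzymes' changes past 2-fold, 1 changed sign under an alternative, which was Tet3 from ES to Day7 with the brightest probe replaced by the next, at 0.49, and over the settings other than thresholds its change ran from −1.52 to 0.49. Over the same settings the change from ES to Day7 ran from −5.53 to −4.61 for Dnmt3b, −3.50 to −2.93 for Dnmt3l, −2.77 to −1.31 for Uhrf1, 1.74 to 2.10 for Dnmt3a, −0.01 to 0.35 for Dnmt1 and −0.14 to 0.31 for Tet2. With changes under 2-fold counted too, 34 of 476 recomputed changes had another sign, 11 of them without normalization. That share does not measure how stable the signs are. The detection settings among the 476 could not change a value, because all probes of the enzymes were well above background. The deposited table repeats the 75th percentile shift, with 7 sign changes under each, and the probe rules cannot move a gene with a single probe. Some counts of called enzymes moved. With the mean over a gene's probes and with the next brightest probe, 3 were lowered from ES to Day7, without Tet3. With the 75th percentile shift and with the deposited table, 2 were lowered from ES to Day2. With no normalization, 4 were lowered from Day2 to Day3, 3 raised and 0 lowered from Day4 to Day7, 4 lowered from ES to Day3 and 5 lowered from ES to Day4, and the median of all genes itself moved by −0.81, 1.06, −0.63 and −1.07 in these comparisons, so that these counts carry the shift of whole arrays. With normexp, which was run on median signals because mean signals were not used here, 1 was raised from ES to Day4 (Dnmt1, 1.04). At 1.5-fold, 1 was raised and 3 lowered from ES to Day2, 1 raised and 4 lowered from Day2 to Day3, 1 raised from Day3 to Day4, 2 raised and 4 lowered from Day4 to Day7, 1 raised and 4 lowered from ES to Day3, and 2 raised and 3 lowered from ES to Day4. At 4-fold, 0 were lowered in each of the steps from ES to Day2, Day2 to Day3 and Day3 to Day4, 0 raised and 0 lowered from Day4 to Day7, 1 lowered from ES to Day3, and 0 raised and 2 lowered from ES to Day7. The thresholds move counts by their construction. The shares of all genes past 1.5-fold and 4-fold are not given here, so the counts at these thresholds cannot be set against a background. For the counts under the shift, the deposited table and normexp the cause was not tested. Without the Day2 array in the normalization, the enzymes' changes between the other arrays stayed on the same side of 2-fold. No paired analysis was possible because every group was a single array, and for the same reason no array could be left out of a group and no slide term fitted. All 13 probes of the enzymes were well above background on every array, so signal over background did not limit their detection, and the dimmer probes of Tet3 had the widest scanner error.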
